A study of Mus musculus with 8 samples.

Results

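The Notch ligands, receptors and effectors described here are 10 genes, namely the receptors Notch1 and Notch2, the ligands Dll1, Dll3 and Jag1, the effectors Hes1, Hes5, Hes6 and Hey1, and the feedback inhibitor Nrarp. They were taken as the non-control probes whose RefSeq accession belongs to 1 of these genes, which gave 13 of 55681 probes and 10 of 20660 genes with a symbol. Expression was measured on 8 single-colour (Cy3) arrays of total RNA from mouse neurospheres, which are clusters of cells grown from neural stem and progenitor cells. There were 2 arrays labelled KO adherent, 3 labelled KO floating and 3 labelled WT floating. KO stands for the HP1gamma knockout, a loss of Cbx3, whose allele and method of deletion are not given in the sources used here. Every culture derived from the ganglionic eminence of E14.5 embryos, with 1 brain per sample, and the cells were quaternary neurospheres grown for 7 days in Neurobasal medium with B-27, 20 ng/ml EGF and 20 ng/ml bFGF. Ultra-low-attachment plates are named in the protocol of all 8 samples, also of those labelled adherent, whose culture has no other description. Cultured progenitors in growth factors are a limited model of the embryonic tissue, and the arrays average over all cells of a culture, so that fewer expressing cells and less RNA per cell cannot be told apart.

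Notch receptors are activated by Delta and Jagged ligands on neighbouring cells, after which the receptor is cleaved and its intracellular domain enters the nucleus. There it joins the DNA-binding protein Rbpj and Mastermind coactivators and switches on targets such as Hes1, Hes5, Hey1 and Nrarp. In the embryonic brain, Hes1 and Hes5 repress proneural genes and keep progenitors from differentiating, while differentiating cells present Delta ligands to their neighbours.

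Promoter sequence was available for 8 of the 10 genes, in 10 windows of 250 bases upstream of the start site (RefSeq, GRCm38.p6). The windows of Hes5, Hes6 and Nrarp are shown because these 3 genes rose in the comparison described below that left out 2 arrays. Capitals mark the letters GTGGGAA, the core of an Rbpj site, in the Hes5 window, and the letters CACNAG, the N box bound by Hes repressors, in the other windows, each on either strand. The windows lie at chr4:154960673-154960922 on the plus strand for Hes5, at chr1:91414039-91414288 and chr1:91413223-91413472 on the minus strand for the first and second start of Hes6, and at chr2:25180508-25180757 on the plus strand for Nrarp.
Hes5: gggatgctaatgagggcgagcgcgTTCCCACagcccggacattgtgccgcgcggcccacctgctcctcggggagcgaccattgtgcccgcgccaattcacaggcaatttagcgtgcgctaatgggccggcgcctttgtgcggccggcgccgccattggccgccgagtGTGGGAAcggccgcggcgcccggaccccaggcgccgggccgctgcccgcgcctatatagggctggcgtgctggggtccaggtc
Hes6, first start: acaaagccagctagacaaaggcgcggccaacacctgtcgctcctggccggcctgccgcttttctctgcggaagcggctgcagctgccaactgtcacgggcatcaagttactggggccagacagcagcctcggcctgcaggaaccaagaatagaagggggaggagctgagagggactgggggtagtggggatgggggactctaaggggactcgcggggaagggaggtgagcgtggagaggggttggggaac
Hes6, second start: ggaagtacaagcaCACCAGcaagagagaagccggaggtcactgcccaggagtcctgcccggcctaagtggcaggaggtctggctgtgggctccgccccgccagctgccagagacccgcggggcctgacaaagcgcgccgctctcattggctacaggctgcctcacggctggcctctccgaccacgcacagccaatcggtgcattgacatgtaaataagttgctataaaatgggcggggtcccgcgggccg
Nrarp: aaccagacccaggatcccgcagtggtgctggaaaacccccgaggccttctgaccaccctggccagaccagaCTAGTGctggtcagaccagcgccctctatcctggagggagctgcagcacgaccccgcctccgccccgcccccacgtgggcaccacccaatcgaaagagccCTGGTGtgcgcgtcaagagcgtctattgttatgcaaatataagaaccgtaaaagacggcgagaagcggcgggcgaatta
The Hes5 window was the only 1 of the 10 with GTGGGAA, and it held 2 matches, beginning 226 bases upstream on the minus strand and 83 bases upstream on the plus strand. Of 32851 promoter windows of this length, 5.42% held the motif and 0.161% held 2 or more matches. The N box letters were found in 4 of the 10 windows, those of Notch1, Notch2, the second start of Hes6, and Nrarp. The Nrarp window held 2 N box matches, beginning 179 and 79 bases upstream. Among all windows, 36.7% held the N box letters and 8.18% held 2 or more. No window held both motifs, so no matches overlap, and a match of letters is a description of the window and not of binding.

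Values are given as log2 signal, the log2 of the processed spot signal minus the log2 of that array's 75th percentile, so that 0 is the 75th percentile. The targeted gene Cbx3 checks the labels. Cbx3 had a log2 signal of -2.03 on KO adherent 1 and 5.91 on KO adherent 2, of -1.86, -2.76 and -1.75 on KO floating 1 to 3, and of 5.83, -2.17 and 5.95 on WT floating 1 to 3. The arrays labelled KO adherent 2 and WT floating 2 therefore oppose their labels, and the second Cbx3 probe separated the arrays in the same way. Whether either probe lies in the deleted part is not given. Comparisons are therefore given as labelled and again without these 2 arrays. Array brightness was similar, with a 75th percentile of 616 to 865 on the linear scale, and no spot was saturated. All 6 neural stem and radial glia markers were above background on all 8 arrays, whereas the ganglionic eminence markers Gsx2 and Nkx2-1 were above background on none. Of the defining markers of other cells, Aif1, Cx3cr1 and Ptprc of microglia, Cdh5 and Cldn5 of endothelium, and Pdgfrb and Rgs5 of mural cells were above background on no array. In the same lists Csf1r of microglia and Kdr of endothelium were above background on all 8 arrays, Acta2 of mural cells on 7, and Pecam1 of endothelium and Col1a1 of mesenchymal cells on 6.

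All 10 genes were above background on all 8 arrays by their brightest probe. Among the receptors, Notch1 had a log2 signal of -0.07 and -1.72 on KO adherent 1 and 2, of -0.78, -1.26 and -0.10 on KO floating 1 to 3, and of -1.71, -0.90 and -1.12 on WT floating 1 to 3. Its values were highest on KO adherent 1 and KO floating 3, and the 3 groups overlapped. Notch2 had 2.37 and 2.09 on KO adherent 1 and 2, 2.21, 2.11 and 2.13 on KO floating 1 to 3, and 1.92, 1.99 and 2.10 on WT floating 1 to 3. Notch2 was nearly level across the arrays, with an SD of 0.14 over all 8. The KO floating arrays lay above the WT floating arrays for Notch2 without overlap, narrowly, as did 3.82% of all features. The weaker Notch1 probe, above background on 5 arrays, differed in the same direction as the brighter one. The weaker Notch2 probe, above background on 1 array, differed by -0.35 between KO floating and WT floating arrays, opposite in sign to the brighter probe.

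Among the ligands, Dll1, a Delta ligand that activates Notch on neighbouring cells, had a log2 signal of 1.64 and 0.38 on KO adherent 1 and 2, of 0.99, 2.20 and 0.52 on KO floating 1 to 3, and of -0.26, 1.49 and -0.12 on WT floating 1 to 3. Dll3, a divergent Delta protein that mainly dampens Notch within its own cell, had 0.38 and -0.35 on KO adherent 1 and 2, -0.21, 1.24 and -0.29 on KO floating 1 to 3, and -0.97, 0.31 and -1.04 on WT floating 1 to 3. Both Delta genes were lowest on WT floating 1 and 3 and highest, among floating arrays of each label, on the array numbered 2. The second Dll3 probe, above background on all 8 arrays, was likewise lowest on WT floating 1 and 3, at -1.49 and -1.85. Jag1, a Jagged ligand, had 1.07 and 1.22 on KO adherent 1 and 2, 1.30, 1.23 and 1.14 on KO floating 1 to 3, and 1.23, 1.45 and 1.11 on WT floating 1 to 3. Jag1 varied least of the 10 genes, with an SD of 0.12 over the 8 arrays, and its groups overlapped.

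Among the effectors, Hes5 varied most of the 10 genes, with an SD of 1.54 over the 8 arrays. Hes5, a repressor induced by Notch in neural progenitors, had a log2 signal of 8.57 and 5.80 on KO adherent 1 and 2, of 8.06, 8.27 and 7.48 on KO floating 1 to 3, and of 4.64, 7.80 and 5.11 on WT floating 1 to 3. Its 3 lowest arrays were WT floating 1, WT floating 3 and the array labelled KO adherent 2, the same 3 on which Cbx3 was high. Hes6, a family member that opposes Hes1 and favours neuronal differentiation, had 4.55 and 3.52 on KO adherent 1 and 2, 4.39, 4.77 and 4.51 on KO floating 1 to 3, and 3.04, 4.56 and 2.93 on WT floating 1 to 3. Hes6 was lowest on the same 3 arrays as Hes5, and its 5 other arrays lay within a narrow range. Hes1, a repressor expressed in progenitors and outside the brain, had 3.26 and 2.70 on KO adherent 1 and 2, 3.05, 1.46 and 3.15 on KO floating 1 to 3, and 2.02, 1.78 and 2.43 on WT floating 1 to 3. Hes1 did not follow Hes5, since its lowest arrays were the floating arrays numbered 2 of either label. Hey1, a related repressor, had 5.48 and 4.88 on KO adherent 1 and 2, 4.95, 4.63 and 5.14 on KO floating 1 to 3, and 4.60, 4.28 and 5.11 on WT floating 1 to 3, and its groups overlapped. Nrarp, a Notch target whose protein limits the activity of the receptor's intracellular domain, had 2.15 and 0.61 on KO adherent 1 and 2, 1.05, 0.68 and 1.17 on KO floating 1 to 3, and -0.70, 0.10 and -0.17 on WT floating 1 to 3. For Nrarp the KO floating arrays lay above the WT floating arrays without overlap, as did 3.82% of all features. Set by Cbx3 signal the arrays overlapped for Nrarp. KO adherent 2, where Cbx3 was high, had 0.61, above WT floating 2, where Cbx3 was low, at 0.10.

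**Figure D1:**
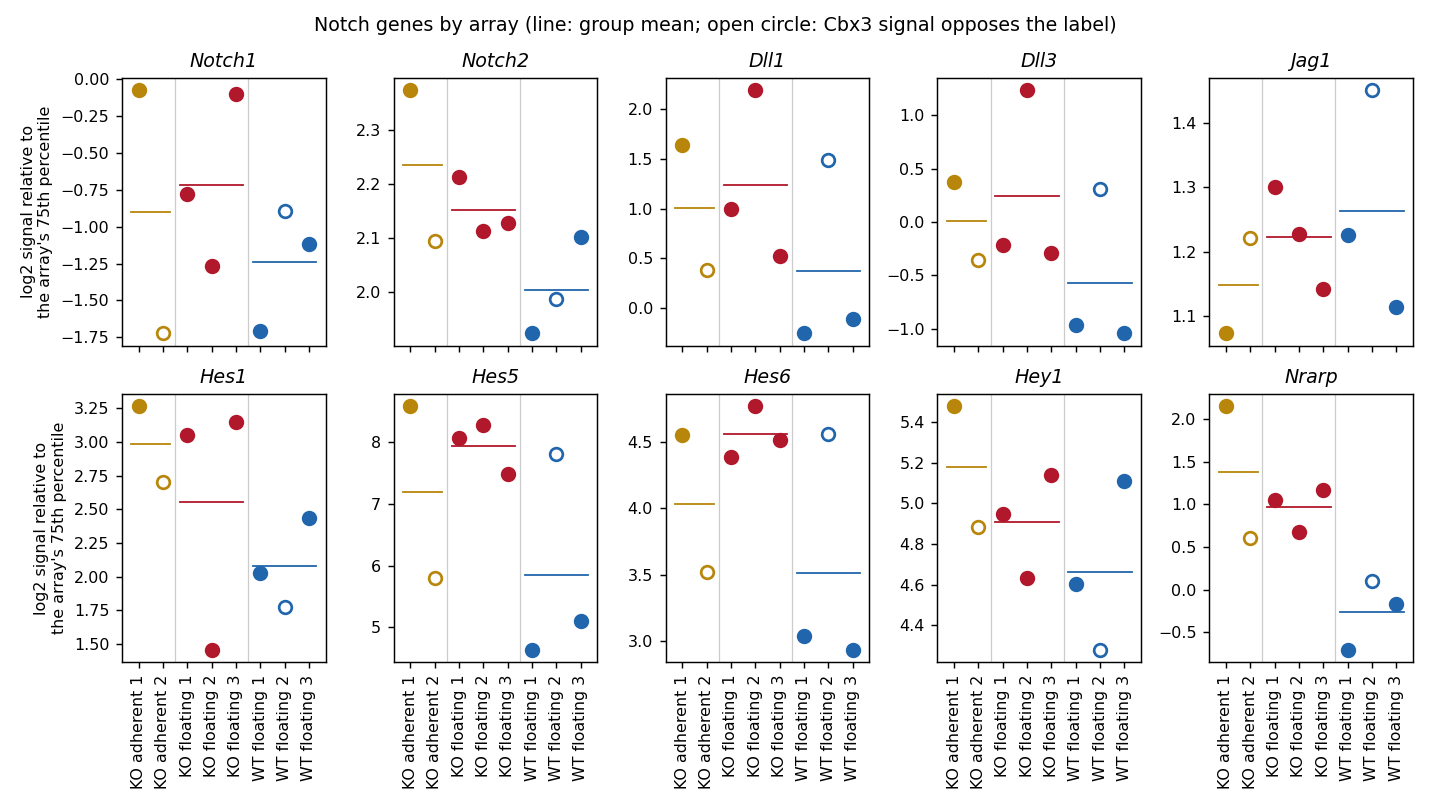
Log2 signal relative to the array's 75th percentile (vertical axes, scaled separately per gene) of the 10 genes on each array, with group means as lines and open circles for the 2 arrays whose Cbx3 signal opposes the label. Hes5 and Hes6 are lowest on KO adherent 2, WT floating 1 and WT floating 3, while Jag1 and Notch2 vary by an SD of 0.12 and 0.14.

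The first comparison was of genotype within floating culture. As labelled, Hes5 averaged 7.94 ± 0.41 in KO floating and 5.85 ± 1.70 in WT floating neurospheres (SD, n = 3 each), and Hes6 averaged 4.56 ± 0.19 in KO floating and 3.51 ± 0.91 in WT floating neurospheres. Nrarp averaged 0.97 ± 0.26 in KO floating and -0.26 ± 0.41 in WT floating neurospheres. None of the 10 genes passed the threshold, a Benjamini-Hochberg adjusted p of 0.05 in limma's moderated test over 22647 features, against 0.00442% of all features. At an unadjusted p under 0.05 the count was 1 of the 10 genes, Nrarp, and 391 of all features. The log2 difference was 2.09 for Hes5 (SE 0.97), 1.05 for Hes6 (SE 0.48) and 1.22 for Nrarp (SE 0.41), each with a limma adjusted p of 0.813. Dll1 differed by 0.87 (SE 0.63) and Dll3 by 0.81 (SE 0.54), also with a limma adjusted p of 0.813. Notch1 differed by 0.53, Hes1 by 0.47, Hey1 by 0.24, Notch2 by 0.15 and Jag1 by -0.04, with 95% intervals that include 0. Of the 10 genes, 9 were higher and 1 lower in KO floating arrays, with a median difference of 0.67, against a median of -0.03 over all features, 46.8% of which were higher. The arrays did not overlap for 2 genes, Notch2 and Nrarp, both higher in KO floating arrays, against 3.82% of all features higher without overlap.

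Without WT floating 2 and KO adherent 2, the KO floating arrays were set against WT floating 1 and 3 alone. The log2 difference was 3.06 (SE 0.31) for Hes5, with a limma adjusted p of 0.0565. It was 1.57 (SE 0.18) for Hes6, with a limma adjusted p of 0.0641, and 1.40 (SE 0.26) for Nrarp, with a limma adjusted p of 0.0905. Dll1 differed by 1.43 (SE 0.52) and Dll3 by 1.25 (SE 0.52), with limma adjusted p-values of 0.184 and 0.216. None of the 10 genes passed, against 0.177% of 25954 features, while 4 of them (Dll1, Hes5, Hes6 and Nrarp) and 6561 in all passed an unadjusted limma p of 0.05. With only these 2 groups in the fit, so without KO adherent 1, Hes5 and Hes6 passed, with limma adjusted p-values of 0.0319 and 0.0351, against 2.14% of all features in that fit. The KO floating arrays lay above WT floating 1 and 3 without overlap for 6 of the 10 genes, namely Notch2, Dll1, Dll3, Hes5, Hes6 and Nrarp, against 24.0% of all features.

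When KO adherent 1 was added to the 3 KO floating arrays, 3 of the 10 genes rose in the KO arrays relative to WT floating 1 and 3, and none fell. These were the repressor Hes5, its relative Hes6 and the feedback inhibitor Nrarp. Over all 21455 features 9.00% rose and 8.37% fell, so that 17.4% passed. Hes5 averaged 8.10 ± 0.46 on the 4 KO arrays and 4.87 ± 0.33 on the 2 WT arrays (SD), a log2 difference of 3.22 (SE 0.32), or 9.33-fold, with a limma adjusted p of 0.00761. Hes6 averaged 4.56 ± 0.16 on the KO arrays and 2.99 ± 0.08 on the WT arrays, a log2 difference of 1.57 (SE 0.15), or 2.97-fold, with a limma adjusted p of 0.00687. Nrarp averaged 1.26 ± 0.63 on the KO arrays and -0.44 ± 0.38 on the WT arrays, a log2 difference of 1.70 (SE 0.41), or 3.25-fold, with a limma adjusted p of 0.0413. All 4 KO arrays lay above both WT arrays for each of the 3 genes, as they did for 24.0% of all features. Hes5 ranked 71st from the top of all features by its difference, Nrarp 545th and Hes6 656th.

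The Delta ligands did not pass in the same comparison. Dll1 averaged 1.34 ± 0.74 on the 4 KO arrays and -0.19 ± 0.10 on the 2 WT arrays, a log2 difference of 1.53 (SE 0.45) with a limma adjusted p of 0.0637. Dll3 averaged 0.28 ± 0.71 on the KO arrays and -1.01 ± 0.05 on the WT arrays, a log2 difference of 1.28 (SE 0.44) with a limma adjusted p of 0.0870. The second Dll3 probe differed by 0.91. Both Delta genes also had all KO arrays above the WT arrays. So did Notch2, which made 6 of the 10 genes, against 24.0% of all features. For Dll1 and Dll3 the spread among the KO arrays was several times that of Hes6. The receptor Notch1 differed by 0.86 (SE 0.39, limma adjusted p 0.158) and Notch2 by 0.19 (SE 0.14, limma adjusted p 0.346). Hes1 differed by 0.50 (SE 0.53, limma adjusted p 0.511) and Hey1 by 0.19 (SE 0.27, limma adjusted p 0.619). Jag1 differed by 0.02, with a 95% interval of -0.30 to 0.33. All 10 genes had a positive difference, with a median of 1.07 against -0.07 over all features, 44.9% of which were positive. The joined comparison was chosen with earlier results of these data known, and culture and genotype cannot be told apart for the adherent array. It shares 5 arrays with the comparison of floating arrays, so the 2 are not independent. The call on Nrarp was lost without any 1 of KO adherent 1, KO floating 1, WT floating 1 or WT floating 3 (limma adjusted p 0.0601, 0.0869, 0.189 and 0.158), and with replicate number as a block (limma adjusted p 0.0518). With that block Notch1 and Hes1 passed, with log2 differences of 1.17 and 0.95 and limma adjusted p-values of 0.0481 and 0.0345. With all 8 arrays as labelled, the joined KO arrays against WT floating gave 0 of 10, with a log2 difference of 1.79 for Hes5, 0.84 for Hes6 and 1.39 for Nrarp (limma adjusted p 0.863 each).

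**Figure D2:**
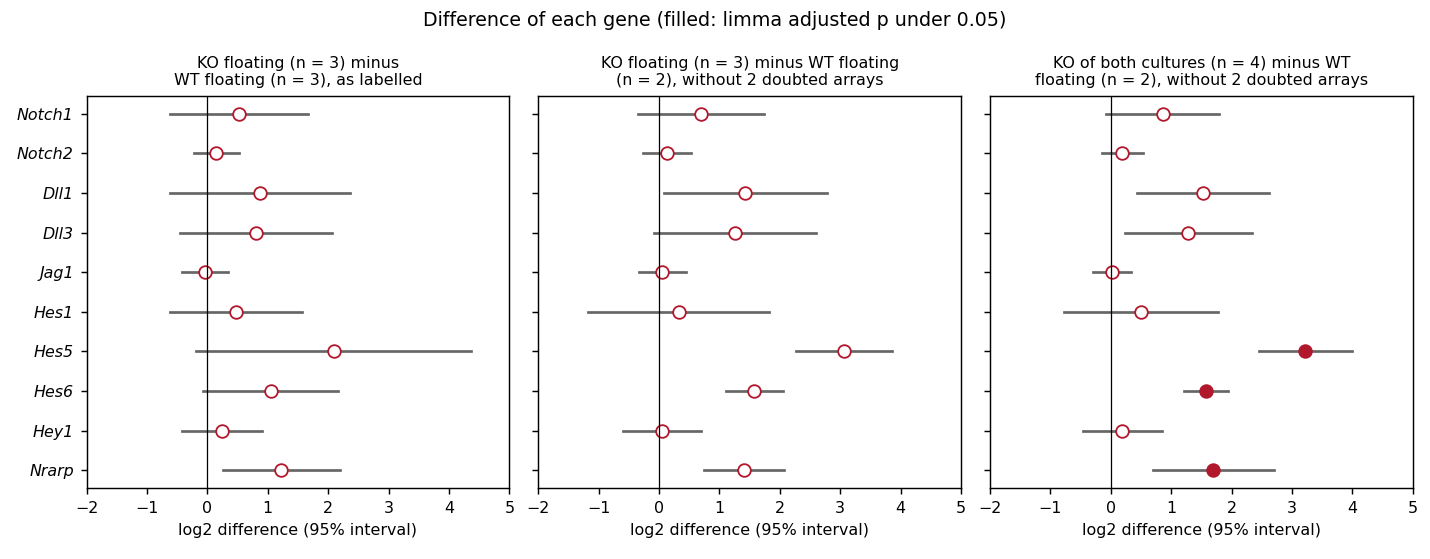
Log2 difference of each gene (horizontal axes, bars are 95% intervals) for KO floating minus WT floating as labelled, the same without the 2 arrays whose Cbx3 signal opposes the label, and the joined KO arrays minus WT floating 1 and 3. Filled points, at 3.22 for Hes5, 1.57 for Hes6 and 1.70 for Nrarp, passed a limma adjusted p of 0.05, and all others did not.

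**Figure D3:**
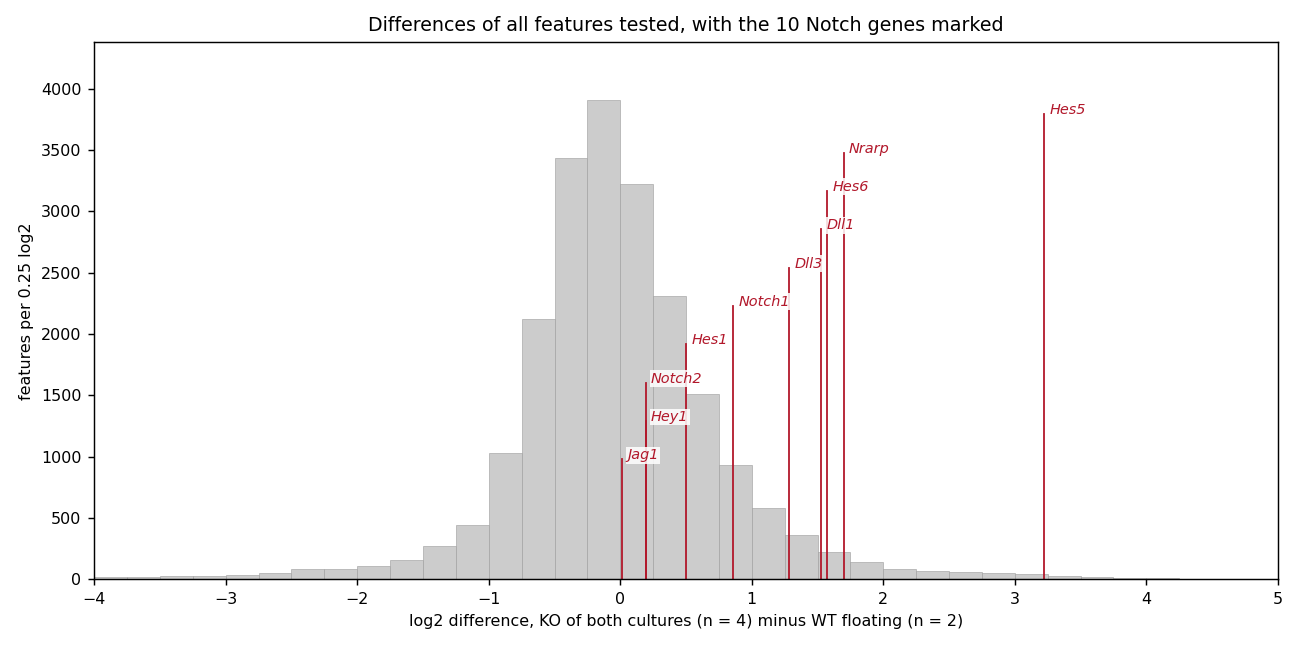
Number of features by log2 difference between the 4 KO and the 2 WT arrays (grey bars, 0.25 log2 wide), with the 10 genes as red lines whose heights carry no value. The median of all features is -0.07, and the 10 genes lie between 0.02 for Jag1 and 3.22 for Hes5.

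Some markers of other neural cells differed between the same 4 KO and 2 WT arrays, while others did not. The summed linear level of 6 oligodendrocyte lineage markers, in multiples of the array's 75th percentile, was 129 to 191 on the 4 KO arrays and 45.0 to 48.1 on WT floating 1 and 3. All 6 were above background on all 8 arrays. Among its members Olig1 and Pdgfra rose and Mbp fell. The oligodendrocyte sum was 69.4 on the array labelled KO adherent 2 and 186 on that labelled WT floating 2. The 5 neuron markers summed to 29.8 to 36.3 on the KO arrays and 22.8 to 23.3 on the WT arrays. Tubb3 rose, while Map2 and Snap25 did not pass. Dcx was above background on 4 of 4 KO and 0 of 2 WT arrays and Rbfox3 on 4 of 4 KO and 1 of 2 WT arrays, so that both were tested through the group where they are high and nothing is read from their calls. The 4 astrocyte markers summed to 73.7 to 161 on the KO arrays and 46.0 to 116 on the WT arrays, so the ranges overlapped. S100b rose, while Aldh1l1 averaged lower on the KO arrays (4.40 against 5.38) and did not pass. Gfap, above background on 1 of 4 KO and 2 of 2 WT arrays, was tested only through the WT arrays. The brighter Aqp4 probe did not enter the fit, and the weaker probe entered only through the KO arrays, so nothing is read from either gene's call. The 5 ganglionic eminence markers summed to 3.11 to 7.52 on the KO arrays and 1.42 to 1.59 on the WT arrays. The 6 stem and radial glia markers summed to 416 to 573 on the KO arrays and 438 to 457 on the WT arrays, and the ranges overlapped, while Pax6 rose and Nes and Vim fell. The 4 mural and mesenchymal markers summed to 0.112 to 0.337 on the KO arrays and 0.794 to 0.921 on the WT arrays. None was above background on all 8 arrays. Only 1 of them, Acta2, was tested. It entered only through the WT arrays where it is high, so nothing is read from its result. The part of these markers in the differences of Hes5, Hes6 and Nrarp was not tested.

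The next comparison was of adherent with floating culture within the knockout. None of the 10 genes passed in KO adherent against KO floating arrays, nor did any of the 22647 features (0%), while the count at an unadjusted limma p under 0.05 was 0 of the 10 and 253 over all features. The differences ran from -0.75 for Hes5 (SE 1.08) to 0.43 for Hes1 (SE 0.52), each with a limma adjusted p of 0.990, and 4 genes were higher and 6 lower. Hes5 averaged 7.19 ± 1.96 on the 2 KO adherent and 7.94 ± 0.41 on the 3 KO floating arrays, and its 95% interval for the difference was -3.29 to 1.79. The spread of the adherent group came from its 2 arrays, which differed for Hes5 by more than any 2 KO floating arrays. Hes1 averaged 2.98 ± 0.40 on the KO adherent and 2.55 ± 0.95 on the KO floating arrays. Without the array labelled KO adherent 2 and that labelled WT floating 2, the difference of Hes5 was 0.64 and so opposite in sign. That fit left KO adherent 1 as the only adherent array, so the value rests on 1 array. KO adherent and WT floating arrays differ in both genotype and culture. Between them none of the 10 genes passed, against 0.00442% of all features. That comparison shares its arrays with the others. Its count at an unadjusted limma p under 0.05 was 1 of the 10 genes, Nrarp, and 406 over all features.

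Among floating arrays of the same label, Hes1 was lowest and the Delta ligands highest on the array numbered 2. Over all 8 arrays KO adherent 1 exceeded the array labelled WT floating 2 for Dll1 (1.64 against 1.49) and Dll3 (0.38 against 0.31), and WT floating 2 is set here beside 2 arrays of high Cbx3 signal while its own was low. Relative to KO floating 1 and 3, KO floating 2 had the lowest Hes1 (1.46, against 3.05 and 3.15) and the highest Dll1 (2.20, against 0.99 and 0.52) and Dll3 (1.24, against -0.21 and -0.29). Relative to WT floating 1 and 3, the array labelled WT floating 2 likewise had the lowest Hes1 (1.78, against 2.02 and 2.43) and the highest Dll1 (1.49, against -0.26 and -0.12) and Dll3 (0.31, against -0.97 and -1.04). Nr4a1, an immediate early gene picked after its values were seen, had a log2 signal of 4.83 on KO floating 2 and 4.50 on WT floating 2, against 7.43 to 8.01 on the other 6 arrays. Hes5 did not set KO floating 2 apart, at 8.27 beside 8.06 and 7.48. Without KO floating 2, the joined comparison gave 7 of 10 genes past the threshold, with Notch1, Dll1, Dll3 and Hes1 added, against 23.6% of all features in that fit. Their limma adjusted p-values were then just under the threshold for Notch1, 0.0498 for Dll1, 0.0396 for Dll3 and 0.0235 for Hes1. Among 18 alternatives to the joined comparison, this one included, Notch1 passed under 4, Dll1 and Hes1 under 2 each and Dll3 under 1. The cause of the differences on the arrays numbered 2 was not tested.

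**Figure D4:**
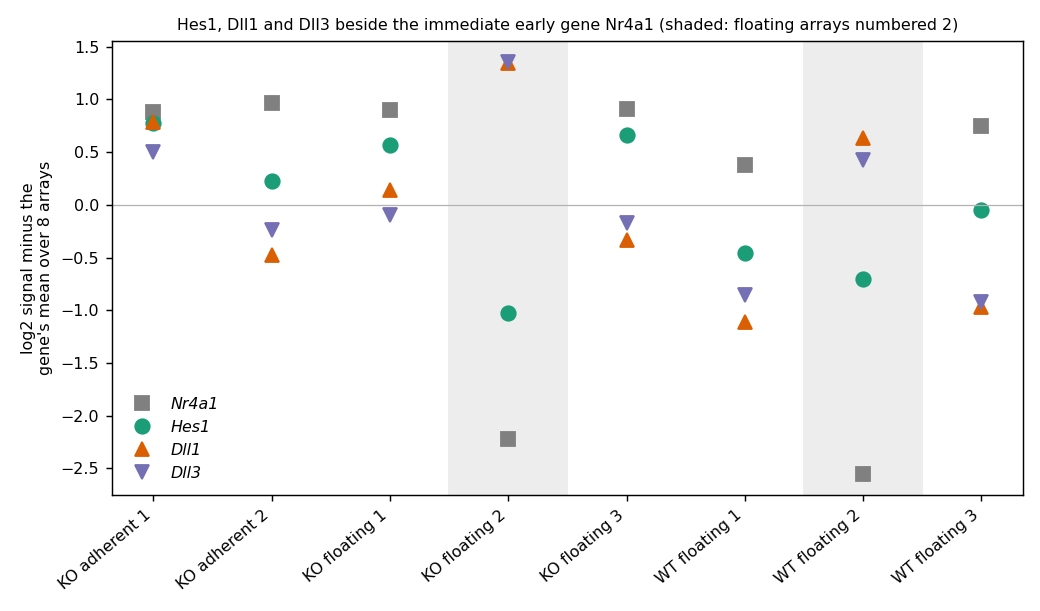
Log2 signal of Hes1, Dll1, Dll3 and Nr4a1 on each array minus that gene's mean over the 8 arrays (vertical axis), with the floating arrays numbered 2 shaded. Hes1 and Nr4a1 lie below their means on both shaded arrays, where Dll1 and Dll3 lie above theirs.

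The genes with values most like those of Hes5 over the 8 arrays were Cfap100, Slc44a5, Nat8f5, Aldoc and Tril. Likeness was the root mean square difference of log2 signals, each centred on the gene's own mean, and it was 0.27 for Cfap100, 0.32 for Slc44a5 and Nat8f5, 0.35 for Aldoc and 0.43 for Tril, beside an SD of 1.54 for Hes5 itself. Aldoc, a glycolytic aldolase found in astrocytes and radial glia, had a log2 signal of 7.31 and 5.12 on KO adherent 1 and 2, of 6.38, 7.55 and 6.11 on KO floating 1 to 3, and of 3.62, 6.66 and 4.46 on WT floating 1 to 3. Like Hes5, Aldoc was lowest on WT floating 1, WT floating 3 and the array labelled KO adherent 2. The arrays and their labels are common to all these genes, and the likeness is a description over 8 arrays.

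**Figure D5:**
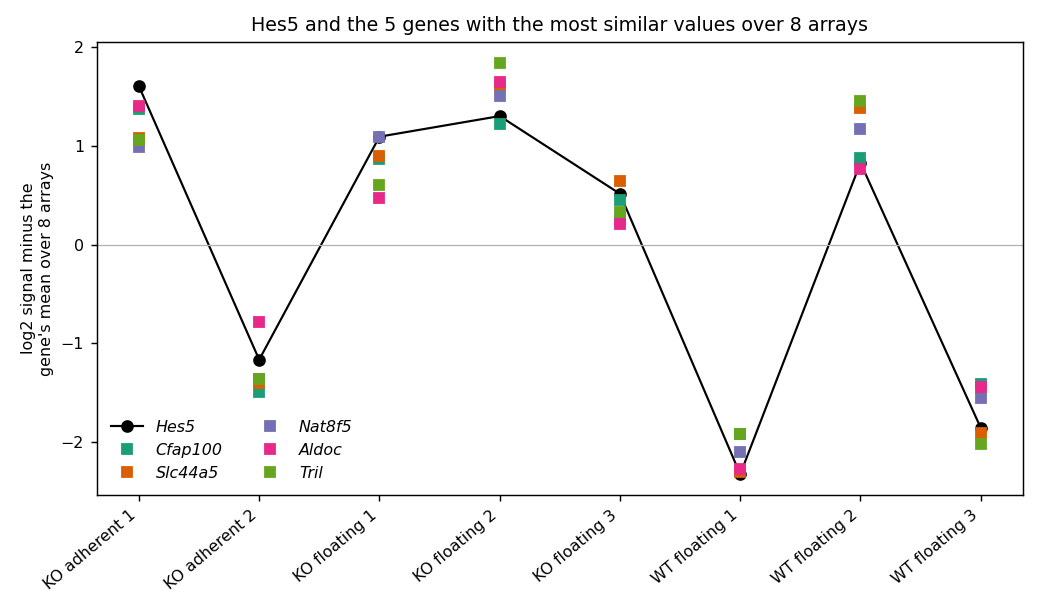
Log2 signal of Hes5 (black line) and of the 5 genes with the smallest root mean square difference from it, each minus its mean over the 8 arrays (vertical axis), by array. All 6 genes lie below their means on KO adherent 2, WT floating 1 and WT floating 3 and above them on the other 5 arrays.

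The other genes of the pathway were read from a list of 48. None of the 44 tested passed in any of the 4 comparisons that kept the groups as labelled or set floating arrays against each other without the 2 arrays. In the joined comparison 5 of 43 tested rose and 3 fell, 18.6% against 17.4% of all features, which is near the background. The 5 include Hes3, which was tested only through the KO arrays where it is high. Of the other receptors, Notch3 differed by 0.58 (limma adjusted p 0.0512) and Notch4 by 0.50 (limma adjusted p 0.193). Among 3 tested ligands Dner, an atypical Notch ligand of neurons, rose by 1.19 (SE 0.19, limma adjusted p 0.0176). Among 15 tested genes of ligand and receptor processing, Lfng, a glycosyltransferase that modifies Notch receptors, rose by 1.43 (SE 0.25, limma adjusted p 0.0217). In that role Adam10, a protease that cleaves Notch receptors, fell by 0.84 on the log2 scale. Mib1, a ligase that promotes ligand endocytosis, fell by 0.63, and Psenen, a subunit of gamma-secretase, fell by 0.52. The limma adjusted p-values of Adam10, Mib1 and Psenen were 0.0253, 0.0365 and 0.0437. Among 8 genes of the nuclear complex the coactivator Maml2 rose by 0.78 (limma adjusted p 0.0321), and Rbpj did not pass. None of 8 inhibitors passed, and their brightest members Dtx4 and Dtx2 differed by 0.05 and -0.04. Among 7 tested other Hes factors and corepressors, the corepressor Tle2 rose by 0.92 (limma adjusted p 0.0363). Hes3, a further Hes repressor of progenitors, was above background on 4 of 4 KO arrays and on 0 of 2 WT arrays and was at least 3.24-fold higher in the KO arrays, a bound given as a description. For that bound each WT array was given its lowest signal among probes well above background, or the Hes3 signal where this was higher.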

How the data were processed

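The deposited scanner files hold spot intensity on a linear scale, background-subtracted, made by Agilent Feature Extraction 11.0.1.1 per the file headers, whereas the submitters' processing notes name 9.1.3.1. The array design refers to build mm9. In the authors' deposited value table, 99.96% of the intensity values of WT floating 1 lay within 0.1% of the scanner signal, so the table is on the scanner's linear scale, with neither centring nor normalization. Its column medians ran from 36.4 to 51.0.

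Log2 processed signals were scaled by subtracting the 75th percentile of non-control spots on that array. Outlier spots were left out, and 200 probes lacking a value on any array were dropped. Probes entered a fit when some group had them well above background on all of its arrays, and a gene was read from its probe of highest mean. Of the 55681 probes, 27235 matched 1 symbol by unversioned accession in a RefSeq table (GRCm38.p6). limma 3.58.1 in R 4.3.3 (lmFit, eBayes, two-sided) was fitted to all features with Benjamini-Hochberg adjustment, and the fits were tested on simulated data. The number of arrays and the doubt about 2 labels limit the precision, with 44.5% to 55.4% of spots above background. All arrays lie on 1 slide with 1 scan.

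The members, lists and comparisons were chosen with earlier results of these data known. The named genes are Cbx3, all 10 members, the passing genes of the pathway list (up to 4 per role, otherwise up to 2 of the brightest) and the 5 genes most like the member of largest SD. Same-numbered floating arrays deviated together (r = 0.103, 0.590 and 0.335 across genes for numbers 1, 2 and 3). So did the differently numbered KO floating 3 with WT floating 1 (0.346) and KO floating 1 with WT floating 3 (0.205). By the rule used, correlations over 0.1 count as pairing. The main fits nevertheless had no replicate term, and the replicate block is given as an alternative. Whether a shared number marks a shared litter or day is not in the labels. Arrays are separate brains per the labels' protocols. Alternatives covered normalization, normexp with an offset of 50 on the median signal, probe filters and choice, variance model, replicate and slide-row blocks, and leaving out each array. Results of some marker genes are not reported here.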

Additional observations from a re-analysis of the deposited data

Results flagged for a closer look

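Among the 4 KO arrays of the joined comparison, Hes1 on KO floating 2 stood apart, at a log2 signal of 1.46 against 3.05 to 3.26 on the other 3. Its gap to the nearest array was 0.884 of the whole range, above Dixon's criterion for 4 values. Of the 10 genes 1 met this criterion, and chance gives it in about 1 group in 20.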

How the results depend on the processing

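The Cbx3 signal opposes the labels of 2 of the 8 arrays, and without them the SE of Hes5 between KO floating and WT floating was 0.31, against 0.97 with them. In the 3 comparisons as labelled, 0 of the 10 genes passed under every alternative run. For KO floating against WT floating without WT floating 2 and KO adherent 2, the count of 0 became 1 with normexp correction (Hes5), 2 with probes required above background throughout, 2 with only the groups compared and 2 with an intensity trend and robust eBayes (Hes5 and Hes6 each time), and 0 to 2 without 1 array. For the joined comparison, the count of 3 became 0 with all 8 arrays as labelled and 2 to 7 without 1 array, 7 being without KO floating 2. The replicate block gave 4 there (Notch1, Hes1, Hes5 and Hes6) and 0 in the other 4 comparisons, and a slide-row block gave 4 by adding Notch1. Hes5 and Hes6 kept their calls in the joined comparison under every alternative except all 8 arrays as labelled, and Nrarp also lost its call with no probe filter (limma adjusted p 0.139). Over all features the joined count of 3725 ran from 1 to 5373 and the floating count of 46 from 0 to 459. Some differences reversed in sign, none of them past the threshold. Jag1 in KO floating against WT floating was 0.053 without WT floating 2 and KO adherent 2, and -0.12 to 0.053 without 1 array. Jag1 in the joined comparison was -0.010 with the replicate block, -0.071 with all 8 arrays, and -0.040 to 0.071 without 1 array. Hey1 there was -0.060 to 0.45 without 1 array. In KO adherent against KO floating, Hes1 was -0.044 with the slide row as a block and -0.12 to 0.73 without 1 array. Hes5 there was 0.64 without WT floating 2 and KO adherent 2, and -2.14 to 0.64 without 1 array. Where either KO adherent array was left out, the adherent group held only 1 array. The cause of these changes was not tested. Of 522 values under an alternative, 483 kept their direction and side of the threshold, 18 newly passed, 9 no longer passed and 12 reversed.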

Other observations

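Some pathway genes dropped on 1 array by 1 probe, and these were chosen after their values were seen. Rfng, a glycosyltransferase of Notch receptors, had a log2 signal of -6.04 on KO floating 3, against 4.0 to 4.5 on the other 7 arrays, while its second probe had -2.99 on KO floating 3, within its range on the others. Neurl1b, a ligase of Notch ligands, had -1.32 on KO floating 3, against 4.72 to 5.45 on the other 7 arrays. The second Neurl1b probe was above background on no array. Fbxw7, which marks the receptor's intracellular domain for degradation, had -2.85 on WT floating 1, against 1.3 to 1.6 on the other 7, while its second probe had -0.97 on WT floating 1, within its range on the others.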
